A study of Drosophila melanogaster with 6 samples.

Results

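The small chromosome 4 of *Drosophila melanogaster* carries a set of named genes, and 44 of them were followed in salivary glands (SGs) of L3 larvae, the last larval instar. Of 46 genes listed by name, 44 were found under the same symbol in the deposited table of 23932 entries. All 44 lie on chromosome 4, where the table has 118 entries other than transposable elements and 80 protein-coding genes. The listed names *Arf102F* and *Thd1* appear there as *Arf4* and *Tdg*, and both are given beside the 44 but not counted with them. The genes were chosen by name and position, with earlier results of these data known.

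Chromosome 4 is the smallest chromosome of the fly, and most of it is packed as heterochromatin. Its genes are nevertheless transcribed, and they sit among repeats in chromatin that binds heterochromatin protein 1 (HP1a). Methylation of histone H3 at lysine 9 on this chromosome depends on the methyltransferase Eggless (*egg*), and the protein encoded by *Pof* binds specifically to its active genes. The SG is a polytene exocrine tissue that makes glue proteins, whereas many named genes of the chromosome are known for roles in eye, nervous system and muscle.

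Total RNA of SGs was sequenced at the wandering L3 stage. The control genotype, *w1118*, has 2 libraries, replicates 1 and 4. The mutant genotype, *de2f1b*, has 4 libraries, replicates 1 to 4, and the labels call all replicates biological. *de2f1b* is the isoform of *E2f1* that includes a microexon, and the mutant larvae lack this isoform. Neither the allelic combination used for sequencing nor the age or number of larvae per library is given in the sources used here. The normalized count used throughout is the number of reads on a gene divided by 1 size factor per library. With a pseudocount of 1, the genotypes were compared on the log2 scale with limma over 11099 genes, and a gene is called when its Benjamini-Hochberg adjusted p is under 0.05. An exact permutation test of 2 against 4 libraries cannot give a p below 0.0667, so only the model across all genes was used.

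The libraries held between 56495956 and 94907006 reads on genes, and 3 reads corresponded to a normalized count of 2.35 to 4.11. A value of 0 allows a level up to this limit at 95% confidence, as far as counting error goes. Glue genes took 15.6% and 22.5% of the reads in *w1118* replicates 1 and 4. In *de2f1b* replicates 1 to 4 they took 21.7%, 23.9%, 14.9% and 14.6%. All 10 SG markers were detected in all 6 libraries, and in 2 of them all *de2f1b* libraries were below both controls, with 0 above. *E2f1* itself was at 12544 and 18666 in *w1118* and at 12896, 10267, 9304 and 7190 in *de2f1b*, and counts per gene cannot show whether the microexon is missing. *de2f1b* replicates 3 and 4 stood apart from the other libraries. The ring gland gene *phm*, an enzyme of ecdysone synthesis, was at 4061 and 4865 in them and between 0 and 10.7 in the other 4, and 7 of 8 ring gland markers and 7 of 9 nervous system markers were more than 2 times as high in both as in every other library. Imaginal disc markers summed to 2648 in *w1118* replicate 1 and to 423 in *w1118* replicate 4. In bulk RNA, fewer cells of a type and less RNA per cell cannot be told apart.

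Of the 44 members, 4 passed the test, and all of them were higher in *de2f1b* SGs. They were *fuss*, a regulator of the Ski/Sno family, *Cadps* and *unc-13*, which prime vesicles for release, and *apolpp*, the precursor of the lipid carrier lipophorin. These 4 of 44 members stand beside 3.17% of all tested genes called higher. None was called lower (limma, background 1.07%), and none was lower at an unadjusted p under 0.05 (background 9.09%), nor with edgeR or DESeq2 (background of DESeq2 5.01%). The listed gene *Arf4*, not counted with the 44, was lower at an unadjusted p of 0.0480 (limma). At an unadjusted p under 0.05, 10 of the 44 were higher, beside 12.5% of all genes. The median log2 fold change of the 44 members was 0.27, and that of all tested genes was 0.02. DESeq2 on the recovered reads called 11 members higher, beside 9.8% of all genes, namely the 4 above and *ey*, *toy*, *Actbeta*, *mGluR*, *Syt7*, *Gat* and *bt*. In *toy*, *Actbeta* and *mGluR* neither control reached a normalized count of 10, so these entered the test only through *de2f1b* libraries. *Actbeta* and *mGluR* are also among the 10 members at an unadjusted p under 0.05.

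The calls rest on few libraries. No member remained called without *w1118* replicate 1, without *w1118* replicate 4, or without *de2f1b* replicate 1, 2 or 4, and 1 member, *apolpp*, was called without *de2f1b* replicate 3. With both *de2f1b* replicates 3 and 4 left out, 0 members were called, while the median of the 44 was 0.15 beside −0.02 for all genes. Without *w1118* replicate 4 the median of the members was 0.04 beside −0.01 for all genes.

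The libraries were also compared without a model. In 14 of the 44 members, each of the 4 *de2f1b* libraries was above both controls, beside 17.4% of all tested genes. In 1 member, *Rad23*, all 4 were below both controls, beside 16%. The same held for *Arf4*, which is not counted with the 44. Of the 14, *toy*, *Actbeta* and *mGluR* passed the minimum of 10 normalized counts in 2 libraries only through *de2f1b* libraries. In these 3, at least 2 *de2f1b* libraries therefore had to be above both controls, which favours this pattern. Among the other 41 members, 11 had all *de2f1b* libraries above both controls. The share of all genes with a control at the minimum was not computed, so the 17.4% is no matched background for these 41. With *de2f1b* replicates 1 and 2 alone, an alternative added after the data were seen, 17 members were above both controls, beside 26.4% of all genes. Below both were 3 members, *dati*, *Hcf* and *Rad23*, beside 27.1%.

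**Figure D1:**
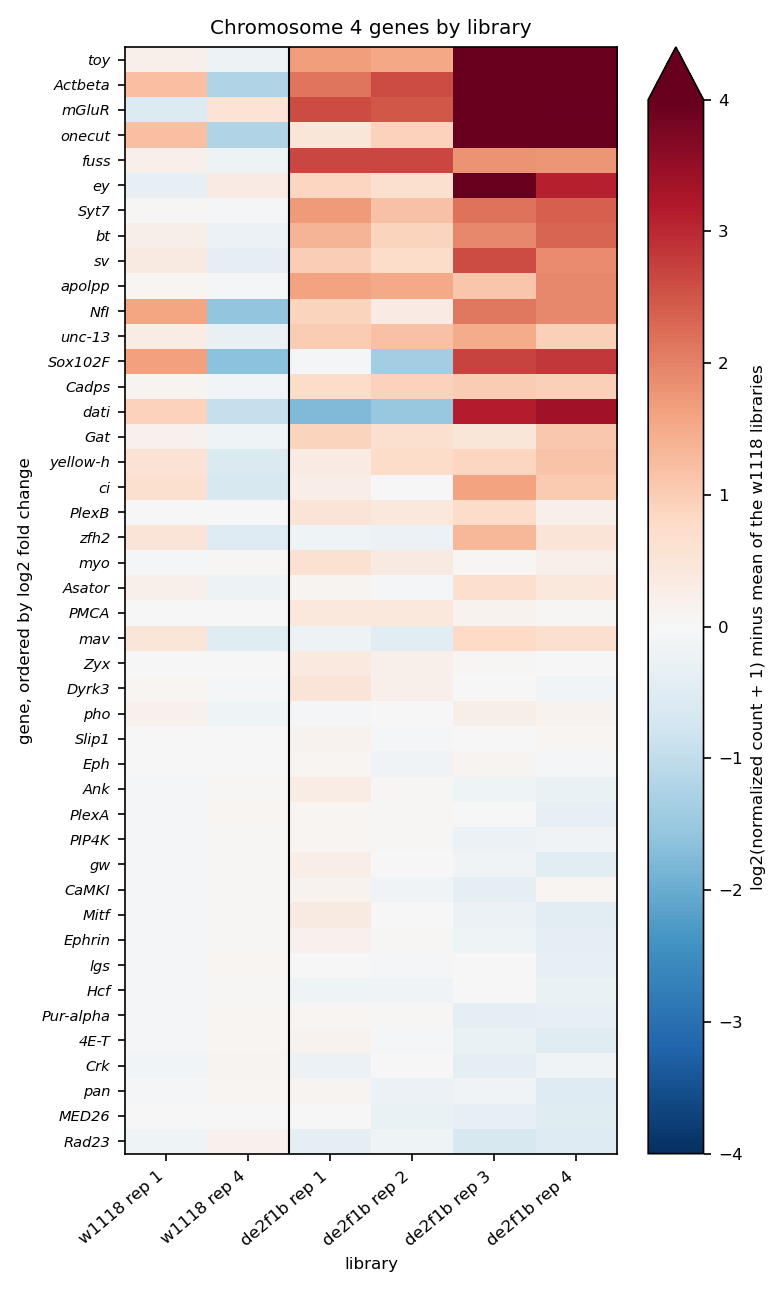
Each row is one of the 44 members and each column one library, and the colour gives log2(normalized count + 1) minus the mean of the 2 *w1118* libraries, with the scale ending at −4 and 4. Rows are ordered by the fitted log2 fold change, from *toy* (4.37) to *Rad23* (−0.42), and the darkest cells lie in *de2f1b* replicates 3 and 4.

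The 4 members of vesicle release and transmitter uptake were all above both controls in all 4 *de2f1b* libraries, beside 17.4% of all tested genes. *Cadps* (4, 1230837 to 1271759 in BDGP6.54) encodes the calcium-dependent activator protein that primes dense-core vesicles. It was at 714 and 602 in *w1118* replicates 1 and 4 and at 1091, 1234, 1338 and 1257 in *de2f1b* replicates 1 to 4. All 4 mutant libraries lay in a narrow band above both controls, and the exons of *Cadps* overlap no other gene. The difference was a log2 fold change of 0.90 (SE 0.17, limma, adjusted p = 0.0376), and without *de2f1b* replicates 3 and 4 it was 0.82 (limma, adjusted p = 0.118).

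*unc-13* (4, 867824 to 912331) encodes the protein that readies synaptic vesicles for fusion. Its normalized counts were 1704 and 1114 in *w1118* and 2804, 3099, 3834 and 2653 in *de2f1b*. The lowest mutant library was thus well above the higher control, and the log2 fold change was 1.15 (SE 0.23, limma, adjusted p = 0.0482). Without *de2f1b* replicates 3 and 4 it was 1.10 (limma, adjusted p = 0.118). Of the exon length of *unc-13*, 28.4% overlaps other annotated genes. One of these is the antisense RNA gene *asRNA:CR44029*, which covers 3.12% of it on the opposite strand. This gene was itself called higher, at 290 and 227 in *w1118* and 2207, 1553, 1239 and 805 in *de2f1b* (log2 fold change 2.40, limma, adjusted p = 0.0269). The sources used here do not say whether counting used the strand, so reads in the shared stretch cannot be assigned to one of the 2 genes.

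*Syt7* (4, 278685 to 306481), a synaptotagmin that senses calcium in vesicle fusion, was at 54.2 and 50.4 in *w1118* and at 172, 118, 241 and 276 in *de2f1b*. All 4 mutant libraries were more than 2 times as high as either control, with the highest values in replicates 3 and 4. The fitted log2 fold change of 1.86 (SE 0.41) did not pass the threshold (limma, adjusted p = 0.0642). The transporter gene *Gat* (4, 629691 to 635350), whose product takes up the transmitter GABA, was at 1562 and 1224 in *w1118* and at 2540, 2155, 1937 and 2907 in *de2f1b*. Its groups did not overlap either, and the highest library was *de2f1b* replicate 4. The log2 fold change of 0.77 (SE 0.21) also missed the threshold (limma, adjusted p = 0.108).

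Nervous system markers were given beside these genes because the 4 are best known from neurons and glia. The pan-neuronal gene *elav* was at 218 and 62.3 in *w1118* and at 113, 79.4, 940 and 948 in *de2f1b*. *brp*, a component of the active zone of synapses, was at 34.2 and 0 in *w1118* and at 12.0, 5.48, 624 and 274 in *de2f1b*. In *de2f1b* replicates 1 and 2, 6 of the 9 markers were between the 2 controls, 2 were below both, and 1, the GABA receptor gene *Rdl*, was above both. *Rdl* was at 7.50 and 11.9 in *w1118* and at 13.3, 16.4, 221 and 68.0 in *de2f1b*, and it was the only marker of the 9 with groups that did not overlap. *Cadps*, *unc-13*, *Syt7* and *Gat* were above both controls in replicates 1 and 2 as well. The sum over the 9 markers was 5076 and 6065 in *w1118* and between 3655 and 8187 in *de2f1b*. *Syt1* was the largest part of this sum in every library, at 4488 and 5871 in *w1118* and at 3729, 3404, 3533 and 5887 in *de2f1b*. The sum therefore hides that 7 of the 9 markers were more than 2 times as high in replicates 3 and 4 as in every other library. The part of neuronal RNA in these values was not tested.

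**Figure D2:**
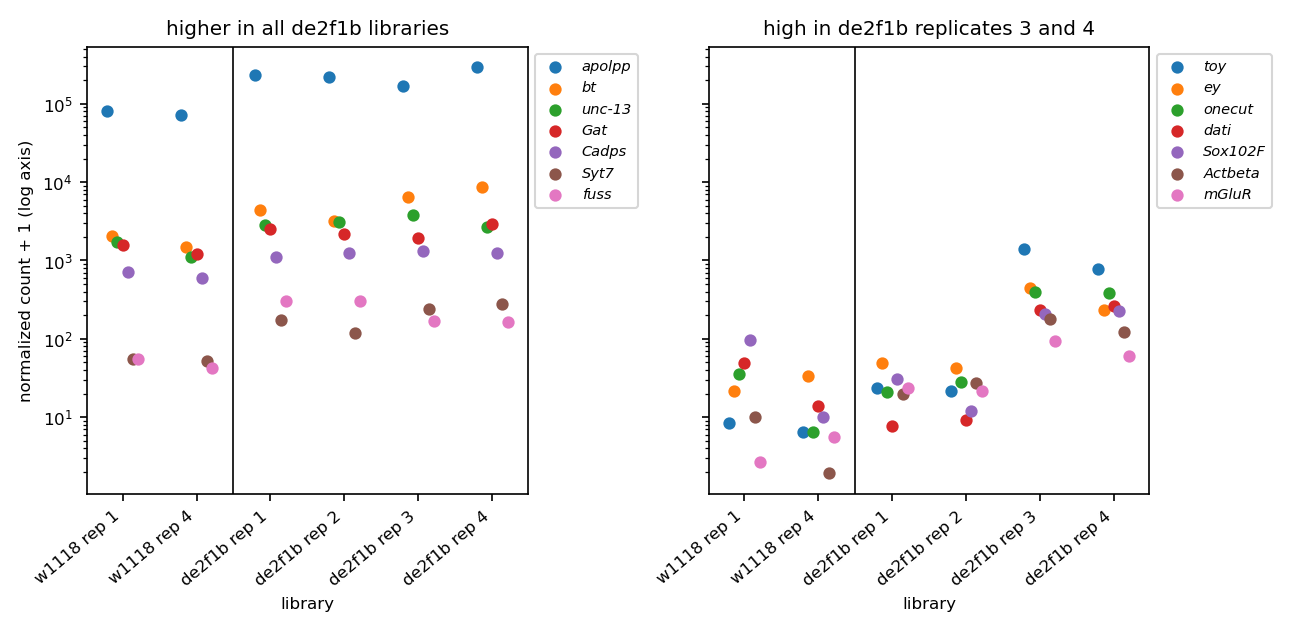
Normalized count plus 1 on a log axis in each of the 6 libraries, with *w1118* to the left and *de2f1b* to the right of the vertical line and 1 colour per gene. In the left panel, genes such as *apolpp* and *fuss* are higher in all 4 *de2f1b* libraries, and in the right panel, 7 genes such as *toy* (1413 and 773) are high in *de2f1b* replicates 3 and 4.

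Of the 14 members grouped here as transcription factors and related regulators, 1 was called higher, beside 3.17% of all tested genes. In 4 of them all *de2f1b* libraries were above both controls, beside 17.4%, and 1 of these, *toy*, had passed the filter only through *de2f1b* libraries. *fuss* (4, 962341 to 978489) was at 54.2 and 41.2 in *w1118* and at 305, 307, 167 and 162 in *de2f1b*. Every mutant library was more than 2 times as high as either control, and the higher values were in replicates 1 and 2. The log2 fold change was 2.22 (SE 0.41, limma, adjusted p = 0.0365), and 2.67 without replicates 3 and 4 (limma, adjusted p = 0.0555). Under quantile normalization it was 1.28 (limma, adjusted p = 0.366). Of its exon length, 30.4% overlaps other genes on the opposite strand, among them *asRNA:CR44030*, which covers 8.04% and was at 1463 and 1460 in *w1118* and 970, 1151, 824 and 1168 in *de2f1b*. This partner was below both controls in every mutant library, the opposite side to *fuss*, and it was not called (limma, adjusted p = 0.192). Another partner, *lncRNA:sphinx*, covers 13.1% and had a log2 fold change of 0.67, the same side as *fuss*, and was not called either (limma, adjusted p = 0.546). Reads in the shared stretches cannot be assigned to one gene, since the strand setting is not given.

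The Pax6 genes *toy* and *ey*, which direct eye development, were low in 4 of the 6 libraries. *toy* (4, 989725 to 1007922) was at 7.50 and 5.50 in *w1118*, at 22.7 and 20.5 in *de2f1b* replicates 1 and 2, and at 1413 and 773 in replicates 3 and 4. *ey* (4, 697689 to 721173) was at 20.8 and 33.0 in *w1118* and at 48.0, 41.1, 449 and 232 in *de2f1b*. For both genes the groups did not overlap, but replicates 3 and 4 were far above the rest. With this spread the log2 fold changes of 4.37 (SE 1.91) and 2.15 (SE 1.04) were not called (limma, adjusted p = 0.248 and 0.290). Without replicates 3 and 4 the log2 fold change of *toy* was 1.6 and that of *ey* 0.74.

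*onecut* (4, 598555 to 607649), a homeodomain gene of neurons, was at 34.2 and 5.50 in *w1118* and at 20.0, 27.4, 401 and 381 in *de2f1b*. *dati*, a zinc finger gene, was at 48.4 and 12.8 in *w1118* and at 6.67, 8.22, 231 and 265 in *de2f1b*. The SoxD gene *Sox102F* was at 96.7 and 9.17 in *w1118* and at 29.3, 11.0, 203 and 224 in *de2f1b*. All of these were highest in replicates 3 and 4 of the mutant, and in replicates 1 and 2 they were below the higher control. The log2 fold changes of 2.69 (SE 1.51), 0.81 (SE 1.75) and 1.02 (SE 1.49) were not called (limma, adjusted p = 0.352, 0.808 and 0.709). Without replicates 3 and 4 those of *dati* and *Sox102F* had the opposite sign, at −1.64 and −0.73.

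Together with *Actbeta* and *mGluR* below, *toy*, *ey*, *onecut*, *dati* and *Sox102F* made 7 of 44 members that were more than 2 times as high in both *de2f1b* replicates 3 and 4 as in every other library, beside 5.85% of all tested genes. Of the 41 members with a control library at the minimum, 4 had this pattern, since *toy*, *Actbeta* and *mGluR* had passed the filter only through *de2f1b* libraries. The 5.85% includes genes without a control at the minimum, and no share under the same control filter was computed. This limit was chosen after the values had been seen. Markers of nervous system and ring gland were high in the same 2 libraries, as given above, and their part in these values was not tested.

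*sv*, the Pax2 gene of the fly, and *NfI*, a member of the nuclear factor I family, were low in all libraries. *sv* (4, 1088798 to 1113317) was at 25.0 and 14.7 in *w1118* and at 38.7, 32.9, 123 and 74.3 in *de2f1b*, and the groups did not overlap. *NfI* (4, 268175 to 276369) was at 88.4 and 9.17 in *w1118* and at 54.7, 37.0, 130 and 113 in *de2f1b*, with *w1118* replicate 1 above 2 of the mutant libraries. Neither log2 fold change was called, with 1.56 (SE 0.66) for *sv* and 1.31 (SE 0.96) for *NfI* (limma, adjusted p = 0.234 and 0.459).

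*w1118* replicate 1 was above *w1118* replicate 4 also in *ci*, the transcription factor of the Hedgehog pathway, with 2748 against 1134. In *de2f1b* *ci* was at 2102, 1788, 5429 and 3643, so the groups overlapped (log2 fold change 0.73, SE 0.54, limma, adjusted p = 0.461). *zfh2*, a zinc finger homeodomain gene, was likewise higher in *w1118* replicate 1 than in replicate 4, with 1508 and 725 in *w1118* and 928, 897, 2638 and 1501 in *de2f1b*. The disc gene *Dll* was at 826 and 22.0 in *w1118* and at 115, 75.3, 1374 and 511 in *de2f1b*, high in the same libraries as *ci*. The 7 disc markers summed to 764, 655, 4129 and 1965 in *de2f1b*, and none had groups that did not overlap. The part of disc RNA in these values was not tested.

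The 4 other regulators had over 1000 normalized counts in every library and overlapped between the groups. *pan*, the TCF factor of the Wnt pathway, was at 2406 and 2729 in *w1118* and at 2777, 2174, 2314 and 1773 in *de2f1b* (log2 fold change −0.20, SE 0.20, limma, adjusted p = 0.586). *Pur-alpha*, which binds single-stranded nucleic acids, was at 4700 and 5175 in *w1118* and at 5173, 5081, 3767 and 3891 in *de2f1b* (−0.15, SE 0.19, limma, adjusted p = 0.647). For *pan* 1 mutant library was above both controls, and for *Pur-alpha* 2 were between them. *Mitf*, a regulator of lysosomal genes, and *pho*, which recruits Polycomb complexes, had log2 fold changes of −0.08 and 0.08. The 3 cofactors, *lgs* of the Wnt pathway, *Hcf* and the Mediator subunit *MED26*, were between −0.28 and −0.10. The lowest of them, *MED26*, was at 6757 and 6884 in *w1118* and at 6803, 5648, 5385 and 4871 in *de2f1b*, where replicate 1 lay between the controls (SE 0.17, limma, adjusted p = 0.381).

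**Figure D3:**
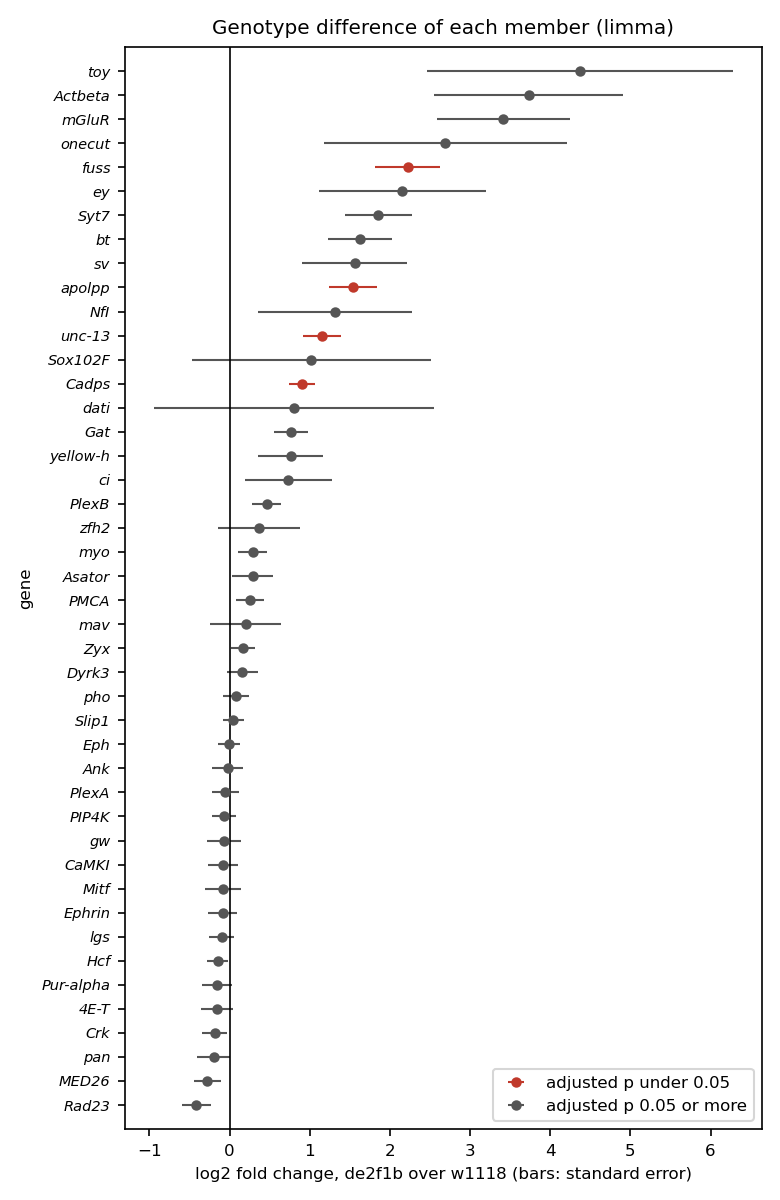
The x axis gives the limma log2 fold change of *de2f1b* over *w1118* for each of the 44 members with its standard error as a bar, and the y axis lists the genes by that value. Red points mark the 4 called members (*fuss*, *apolpp*, *unc-13* and *Cadps*), whose bars are short beside those of *toy* (SE 1.91), *onecut* and *dati*.

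Among the 4 ligands, 3 of the TGF-beta family and *Ephrin*, none was called. *Actbeta* (4, 1077331 to 1084796), the activin beta ligand, was at 9.17 and 0.917 in *w1118* and at 18.7, 26.0, 179 and 122 in *de2f1b*. The value of 0.917 is 1 read, and replicates 3 and 4 were again the highest. The fitted log2 fold change of 3.73 (SE 1.18, limma, adjusted p = 0.142) depends on the pseudocount, and it was 2.30 with a pseudocount of 10. *myo*, which encodes myoglianin, was at 3566 and 3801 in *w1118* and at 5563, 4674, 3783 and 4194 in *de2f1b*, where replicate 3 lay between the controls (log2 fold change 0.29, SE 0.18, limma, adjusted p = 0.398). *mav* and *Ephrin* overlapped between the groups, with log2 fold changes of 0.20 and −0.09.

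The receptors were split in the same way. *mGluR* (4, 936819 to 949441), the metabotropic glutamate receptor, was at 1.67 and 4.58 in *w1118* and at 22.7, 20.5, 93.2 and 58.6 in *de2f1b*. Both controls were at 5 reads or fewer, so the log2 fold change of 3.41 (SE 0.83, limma, adjusted p = 0.0800) depends on the pseudocount, and it was 1.98 with a pseudocount of 10. *PlexB* (4, 32478 to 43778), a semaphorin receptor, was at 1636 and 1607 in *w1118* and at 2294, 2179, 2721 and 1853 in *de2f1b*. Its groups did not overlap, and replicate 4 was nearest to the controls (log2 fold change 0.47, SE 0.18, limma, adjusted p = 0.204). Those of *PlexA*, the second plexin, and of *Eph*, the receptor of Ephrin, were −0.05 (SE 0.17) and −0.00 (SE 0.14).

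*bt* (4, 724400 to 776474) encodes projectin, a titin-like protein of muscle. Its normalized counts were 2033 and 1465 in *w1118* and 4464, 3222, 6493 and 8679 in *de2f1b*. The groups did not overlap, and replicates 3 and 4 were the highest. The log2 fold change was 1.63 (SE 0.40, limma, adjusted p = 0.0818), and 1.14 without replicates 3 and 4. The 9 muscle markers summed to 48239 and 20301 in *w1118* and to 54748, 41318, 90532 and 160610 in *de2f1b*, so *w1118* replicate 1 was above *de2f1b* replicate 2. Of these markers, 8 were highest in replicates 3 and 4, all 9 were detected in every library, and 1 had groups that did not overlap. Whether muscle RNA takes part in the values of *bt* was not tested. *Zyx* and *Ank*, which link the cytoskeleton to adhesions and membranes in many tissues, had log2 fold changes of 0.17 (SE 0.15) and −0.02 (SE 0.19).

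*apolpp* (4, 1060969 to 1077273) had the highest normalized counts of the 44 members, with 81305 and 72114 in *w1118* and 231289, 220946, 166196 and 292194 in *de2f1b*. Every mutant library was more than 2 times as high as either control, and the lowest was replicate 3. The log2 fold change was 1.54 (SE 0.30, limma, adjusted p = 0.0430), and 1.56 without replicates 3 and 4 (limma, adjusted p = 0.0839). It was also called with edgeR (adjusted p = 0.0428) and with DESeq2 (adjusted p = 4.2e-08).

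Lipophorin is made by the fat body, and so fat body markers are given beside *apolpp*. The 7 markers summed to 4417500 and 4822620 in *w1118* and to 4601570, 4358220, 2946230 and 5800290 in *de2f1b*. None of the 7 had groups that did not overlap, and both the fat body sum and *apolpp* were lowest in replicate 3 and highest in replicate 4 among the mutant libraries. The part of fat body RNA in the values of *apolpp* was not tested. *Lsp2*, a larval serum protein, was at 1194830 and 1194190 in *w1118* and at 1315610, 1250760, 841772 and 1420320 in *de2f1b*. *yellow-h*, another member with a secreted product, was at 204 and 92.6 in *w1118* and at 173, 227, 250 and 304 in *de2f1b* (log2 fold change 0.76, SE 0.40, limma, adjusted p = 0.325).

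The members of general cell function differed little. *Crk*, *Asator*, *Dyrk3*, *PIP4K* and *CaMKI*, an adaptor and 4 kinases, all overlapped between the groups, and their log2 fold changes were between −0.18 and 0.29. *CaMKI*, a calmodulin-dependent kinase, was at 15594 and 16794 in *w1118* and at 17884, 14708, 12442 and 16900 in *de2f1b* (−0.08, SE 0.19). *Crk* was at 4604 and 5284 in *w1118* and at 4228, 4963, 3803 and 4459 in *de2f1b* (−0.18, SE 0.16). In both genes the mutant libraries spread around or just below the controls, and neither was called (limma, adjusted p = 0.827 and 0.517).

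*gw*, which encodes the GW182 protein of microRNA silencing, was at 16166 and 16883 in *w1118* and at 20026, 16431, 15016 and 12351 in *de2f1b* (log2 fold change −0.07, SE 0.21). *Ank* was at 14305 and 15370 in *w1118* and at 18290, 15305, 13065 and 12364 in *de2f1b*. *4E-T*, a translational repressor that binds eIF4E, was at 4734 and 5295 in *w1118* and at 5578, 4796, 4191 and 3580 in *de2f1b* (−0.16, SE 0.20). In these 3 genes *de2f1b* replicate 1 was above both controls and replicates 3 and 4 were below both, and none was called (limma, adjusted p = 0.860, 0.956 and 0.657).

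*PMCA* (4, 328193 to 358917), the calcium pump of the plasma membrane, was at 18796 and 19341 in *w1118* and at 25365, 25714, 20809 and 19895 in *de2f1b*. All mutant libraries were above the controls, replicate 4 only slightly (log2 fold change 0.26, SE 0.17, limma, adjusted p = 0.428), and 40.5% of its exon length overlaps *Rnf11* on the opposite strand. *Rad23* (4, 308093 to 310822), whose product carries ubiquitinated proteins to the proteasome, was at 9264 and 11716 in *w1118* and at 8198, 9186, 6737 and 7322 in *de2f1b*. All mutant libraries were below both controls, replicate 2 only slightly (log2 fold change −0.42, SE 0.18, limma, adjusted p = 0.249). *Slip1* had a log2 fold change of 0.05 (SE 0.13).

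The 2 genes found under other symbols were also measured. *Arf4*, listed as *Arf102F*, a small GTPase of vesicle traffic, was at 17582 and 25896 in *w1118* and at 15368, 16402, 10581 and 14845 in *de2f1b*. All mutant libraries were below both controls, and the log2 fold change of −0.60 (SE 0.25) was not called (limma, adjusted p = 0.227, unadjusted p = 0.0480). *Tdg*, listed as *Thd1*, a DNA glycosylase, overlapped between the groups with a log2 fold change of 0.11 (SE 0.17).

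Members that differed most tended to have few reads, which also makes their values less precise. Among the 11 members with a mean normalized count under 300 over the 6 libraries, the median log2 fold change was 1.86 and all 11 were positive. The 3657 genes of the other arms in the same range had a median of 0.76, and 73.1% were positive. *Actbeta* and *mGluR* are among the 11 and had passed the filter only through *de2f1b* libraries. Among the 31 members with a mean of at least 1000, the median was −0.00, and 25 (80.6%) lay within 0.5 of 0. In this range 7 members (22.6%) had all *de2f1b* libraries above both controls and 1 had all below. For the 4550 genes of the other arms in this range, the median was −0.16, 72.9% lay within 0.5 of 0, and 9.45% were above and 22.4% below.

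**Figure D4:**
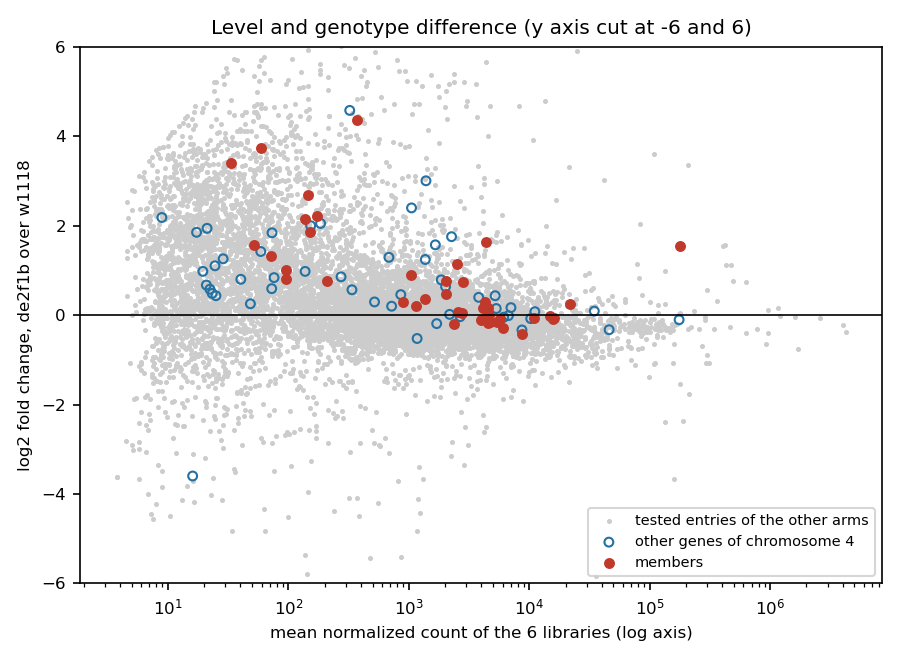
Each point is a tested entry, with the mean normalized count of the 6 libraries on a log x axis and the log2 fold change of *de2f1b* over *w1118* on the y axis. The 44 members are red, the other genes of chromosome 4 are open blue circles and the tested entries of the other arms are grey. Transposable elements of chromosome 4, *Arf4* and *Tdg* are not drawn, and the y axis is cut, so entries beyond its ends are not visible. Members under 300 are all above 0, while most from 1000 on lie within 0.5 of 0.

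Per kilobase of exon, the order of the members in controls spanned several orders of magnitude. *apolpp* had the highest mean in *w1118*, with a normalized count of 6520 per kilobase, followed by *Rad23* (5175), *CaMKI* (4788), *Crk* (3643) and *PIP4K* (3026). The lowest were *mGluR* (0.492), *Actbeta* (1.37), *toy* (1.66), *onecut* (2.94) and *sv* (3.81). In *de2f1b* the mean per kilobase was 19349 for *apolpp* and 3878 for *Rad23*, and that of *toy*, set by replicates 3 and 4, was 142.

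The other genes of the chromosome were described in the same way. Of the 96 tested genes of chromosome 4 other than transposable elements, 9 (9.38%) were called higher and none lower (limma), beside 2.64% to 3.30% called higher on the other arms. Their median log2 fold change was 0.45, whereas the medians of the 5 other arms were between −0.01 and 0.00. In 33.3% of them all *de2f1b* libraries were above both controls, beside 14.5% to 17.4% on the other arms. These shares include genes with no control at the minimum, such as *toy*, *Actbeta*, *mGluR* and, outside the list, *Kif3C*. No share under the same control filter was computed. The arms were also not matched by level. On the other arms the share was 25.4% under a mean of 300 and 9.45% from 1000 on. For the genes of chromosome 4 outside the list it was 42.9% and 30.4%. The comparison of arms is a description, and no test of the chromosome as a whole was made.

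The 5 called genes outside the list were *CG11155*, *lncRNA:CR46488*, *asRNA:CR44029*, *CG31999* and *CG31997*. *CG11155* was at 320 and 179 in *w1118* and at 2318, 1577, 2243 and 1695 in *de2f1b*. All 4 mutant libraries were several times as high as either control, with little spread among them, and the log2 fold change was 3.01 (SE 0.29, limma, adjusted p = 0.005). *lncRNA:CR46488* was at 33.4 and 10.1 in *w1118* and at 463, 401, 405 and 628 in *de2f1b* (log2 fold change 4.58, SE 0.49, limma, adjusted p = 0.00641). Like *apolpp*, these genes were high in replicates 1 and 2 as well as in 3 and 4. The 61 tested transposable elements of the chromosome had a median log2 fold change of 0.56. Of these, 1 was called higher, beside 3.17% of all tested genes, and none lower (limma). No median or share was computed for transposable elements of the other arms, so the 0.56 has no matched background.

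**Figure D5:**
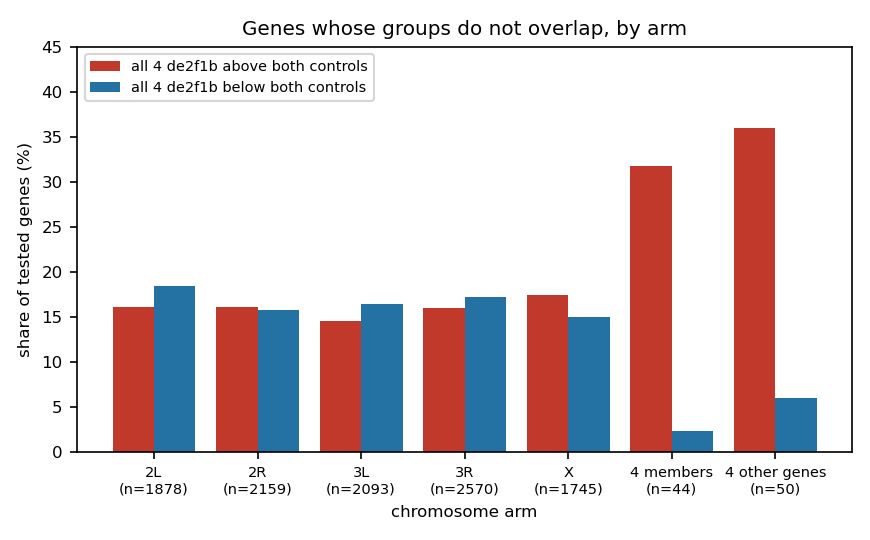
Bars give the share of tested genes, transposable elements left out, in which all 4 *de2f1b* libraries were above (red) or below (blue) both controls, for each chromosome arm. The share above is 31.8% for the 44 members and 36% for the 50 other genes of chromosome 4, beside 14.5% to 17.4% on the other arms.

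None of the genes whose products act on the chromatin of chromosome 4 was called. *Pof* was at 560 and 419 in *w1118* and at 522, 396, 1282 and 501 in *de2f1b*, and replicate 3 was far above the other 5 libraries (log2 fold change 0.32, SE 0.47, limma, adjusted p = 0.716). *egg* overlapped between the groups (0.26, SE 0.34, limma, adjusted p = 0.672). The HP1a gene was at 7055 and 7401 in *w1118* and at 4648, 5952, 6484 and 7036 in *de2f1b*. All mutant libraries were below both controls, replicate 4 by very little (−0.28, SE 0.19, limma, adjusted p = 0.438). *Su(var)3-9*, a histone H3 lysine 9 methyltransferase that acts mainly at pericentric heterochromatin, was at 504 and 418 in *w1118* and at 208, 196, 390 and 273 in *de2f1b*. Its groups did not overlap either, and the log2 fold change was −0.84 (SE 0.33, limma, adjusted p = 0.214).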

How the data were processed

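The authors extracted total RNA from SGs, prepared Illumina libraries and, per the labels, used FastQC 0.11.8, STAR 2.7.6a, featureCounts 1.6.0 and DESeq2 with the build BDGP6. The strand setting and the version of DESeq2 are not given in the sources used here. For each library the authors deposited a signal, the read count on each gene divided by 1 size factor. The columns in which the authors deposited their own comparison (a mean signal, log2 fold changes, standard errors, a test score, p-values) were not used. In each library 100% of the values were whole multiples of 1 read (tolerance 0.001 reads), so the reads were recovered. Samples were grouped by the genotype in their titles.

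Genes entered the test where 2 or more libraries reached a normalized count of 10. The test was limma 3.58.1 in R 4.3.3 (pseudocount of 1, log2 scale, intensity trend, genotype only, all 6 libraries, two-sided, Benjamini-Hochberg adjustment over 11099 genes). The scripts were tested on simulated data. Alternatives were other pseudocounts, filters, scalings and limma settings, leaving out libraries, and recovered reads in DESeq2 1.42.0 and edgeR 4.0.16. Where 1 control was left out, the other control was assumed to vary like the mutant libraries. Positions, exon lengths and overlaps came from the Ensembl annotation release 115 of BDGP6.54. The members, gene lists and tests were chosen with earlier results of these data known. Values in every library are given for members that were called, had an unadjusted p under 0.05, had an absolute log2 fold change of at least 1, or were among the 6 largest rises or falls or the 5 highest means. *ci*, *zfh2*, *dati*, *myo* and *yellow-h* were added after their values were seen. Tables were handled with pandas 2.3.3 and NumPy 2.4.6 in Python 3.11.15, and plots were drawn with Matplotlib 3.10.9.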

Additional observations from a re-analysis of the deposited data

How the results depend on the processing

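The count of 4 members called higher became 0 with no filter on low values, with the replicate block and without *de2f1b* replicates 3 and 4. It was 2 with equal library totals, with equal totals after removal of the top 50 genes, with quantile normalization and without the trend, 1 with edgeR and 11 with DESeq2. Leaving out 1 library gave 0 to 1, and no setting called a member lower. The 352 genes called higher became 208 with no filter, 201 with quantile normalization, 5 with the replicate block, 111 without replicates 3 and 4, 198 with edgeR and 1088 with DESeq2, and the 119 called lower became 71, 120, 2, 43, 89 and 556. Leaving out 1 library gave 69 to 216 higher and 5 to 66 lower. Quantile normalization moved the share of calls that were higher from 74.7% to 62.6%. The 2 kinds of equal totals moved the median of all genes from 0.02 to 0.17 and 0.22 and that of the members from 0.27 to 0.42 and 0.48, so the members stayed 0.25 above it. With no filter the members were at 0.27 and all genes at 0.24. The median of the members was 0.044 to 0.37 when 1 library was left out. The replicate block adds a term for each replicate number, and *de2f1b* replicates 2 and 3 have no control with the same number. Under the block the genotype difference thus rests on replicates 1 and 4 of each genotype alone. Its counts are not those of a fit on all libraries. Why the values in this paragraph moved was not tested.

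Replicate numbers 1 and 4 occur in both genotypes, but no source says that they mark a shared batch, and libraries with the same number did not deviate together (correlations of −0.32 and −0.36 over genes). Pairing *w1118* 1 with *de2f1b* 4 and 4 with 1 gave 0.36 and 0.32, and with 2 controls these signs are tied to each other. With the replicate block *fuss* was at 2.21, *Cadps* at 0.84, *unc-13* at 0.98 and *apolpp* at 1.76.

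Across the 19 alternatives *fuss* was no longer called in 11, *Cadps* in 13, *unc-13* in 15 and *apolpp* in 8, and all 4 stayed positive. Members near 0 changed sign, and so did some with larger values in the main fit, among them *Sox102F* (1.02) and *NfI* (1.31). *CaMKI*, *Ank* and *gw* were at 0.075, 0.13 and 0.081 with equal totals, 0.13, 0.18 and 0.13 with equal totals after removal of the top 50 genes, 0.12, 0.19 and 0.14 with quantile normalization, and 0.0032, 0.17 and 0.13 without replicates 3 and 4. With the top 50 genes removed *pan* was at 0.0033, *Pur-alpha* at 0.048, *Crk* at 0.019 and *4E-T* at 0.041. With the block *CaMKI* was at 0.10 and *Ank* at 0.020. Without replicates 3 and 4 *Sox102F* was at −0.73, *Pur-alpha* at 0.056 and *4E-T* at 0.047. *Ank* was at 0.017 with edgeR and 0.0021 with DESeq2. Leaving out 1 library gave −0.61 to 2.65 for *Sox102F*, −0.25 to 2.88 for *NfI*, −0.15 to 0.023 for *CaMKI*, −0.13 to 0.055 for *Ank* and −0.19 to 0.044 for *gw*. The search for promoter motifs was not run, since it needs sequences not used here.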
